A study of Mus musculus with 18 samples.

Results

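The 10 genes described here encode 6 matrix metalloproteinases (Mmp2, Mmp3, Mmp9, Mmp12, Mmp13 and Mmp14) and the 4 tissue inhibitors of metalloproteinases (Timp1, Timp2, Timp3 and Timp4). They were taken by symbol from the 54281 genes of a count table. Earlier results of these data were known when the genes were chosen. All 10 were among the 15210 genes tested, those in which 6 or more mice had 10 or more counts. RNA had been sequenced from the descending aorta, intima, media and adventitia together, of 18 male mice of strain C57BL/6. A group of 6 carried the allele LMNAG609G (called HGPS here, 64 to 75 d old), a group of 6 was wild type and about 2 mo old (2-mo WT, of which 5 were 62 d and replicate 6 was 95 d old), and 6 were wild type and about 24 mo old (24-mo WT, 609 to 762 d). HGPS stands for Hutchinson-Gilford progeria syndrome. The allele makes cells splice Lmna into progerin, a truncated Lamin A, in every tissue that expresses the gene. The study names a supplier for WT mice and another laboratory as the source of the HGPS line. Whether the 2-mo WT mice were littermates of that line is not stated, so genotype and colony cannot be told apart. The counts are per gene and do not show the mutation, so they are no check of the genotype labels.

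MMPs are zinc-dependent proteases that are made as inactive zymogens and cut collagens, elastin, laminins and other matrix proteins. MMP2 and MMP9 are the gelatinases, MMP3 is stromelysin-1, MMP12 is the elastase of macrophages, MMP13 is an interstitial collagenase, and MMP14 is anchored in the cell membrane, where it activates pro-MMP2. TIMPs bind the active site of MMPs. TIMP2 also forms the bridge between MMP14 and pro-MMP2 during activation, and TIMP3 is held in the matrix and inhibits several ADAM and ADAMTS proteases as well. In the artery, this balance is known for its part in the turnover of elastic fibers and collagen.

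Mmp13, Mmp12 and Mmp3 lie in this order, all on the plus strand, in a run of 10 Mmp genes on mouse chromosome 9 that spans 427072 bases (7272514 to 7699585, GRCm38, GENCODE M21). The start regions of these 3 genes are printed below, since Mmp12 and, on very few counts, Mmp13 were higher in HGPS aortas while Mmp3 did not pass the test there, and that of Timp1 because it had the largest change of the genes past the study's cut-offs in HGPS. Each window runs from 250 bases before to 50 bases after a RefSeq transcript start (GRCm38.p6), 5' to 3' along the gene. Capitals mark the letters of an AP-1 element (TGACTCA, or TGAGTCA on the other strand) and of a TATA box (TATAAA, plus strand of the gene only), and no 2 of these matches overlapped.
Mmp13, chr9:7272264-7272563, plus strand: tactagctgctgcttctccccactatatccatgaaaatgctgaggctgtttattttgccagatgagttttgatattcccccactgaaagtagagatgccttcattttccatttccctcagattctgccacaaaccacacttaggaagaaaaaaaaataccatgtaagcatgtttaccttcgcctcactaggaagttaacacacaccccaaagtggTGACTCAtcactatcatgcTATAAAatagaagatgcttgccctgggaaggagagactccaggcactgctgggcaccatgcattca
Mmp12, start inside the gene, chr9:7347124-7347423, plus strand: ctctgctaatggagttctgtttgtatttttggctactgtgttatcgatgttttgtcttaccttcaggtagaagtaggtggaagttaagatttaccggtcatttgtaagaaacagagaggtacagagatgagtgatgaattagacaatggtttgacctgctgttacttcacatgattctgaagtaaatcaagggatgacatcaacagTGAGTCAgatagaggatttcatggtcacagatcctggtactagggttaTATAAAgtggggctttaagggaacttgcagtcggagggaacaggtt
Mmp3, chr9:7445572-7445871, plus strand: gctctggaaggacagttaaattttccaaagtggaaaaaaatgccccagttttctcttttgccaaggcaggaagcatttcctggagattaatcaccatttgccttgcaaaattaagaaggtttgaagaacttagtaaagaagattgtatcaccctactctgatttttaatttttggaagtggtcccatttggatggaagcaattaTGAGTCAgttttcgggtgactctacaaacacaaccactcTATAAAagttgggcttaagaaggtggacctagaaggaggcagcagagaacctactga
Timp1, chrX:20869916-20870215, plus strand: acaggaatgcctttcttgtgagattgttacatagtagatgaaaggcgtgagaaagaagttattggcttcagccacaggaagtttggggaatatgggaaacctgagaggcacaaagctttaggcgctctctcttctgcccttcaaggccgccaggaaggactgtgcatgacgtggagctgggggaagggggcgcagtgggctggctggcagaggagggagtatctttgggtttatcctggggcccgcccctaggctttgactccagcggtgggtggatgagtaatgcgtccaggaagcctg

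All 3 windows printed for chromosome 9 held one AP-1 match and one TATA match. With the base before the start as -1, the AP-1 letters stood at -35 to -29 in Mmp13, at -44 to -38 in Mmp12 and at -46 to -40 in Mmp3. The TATA letters stood at -16 to -11 in Mmp13, at -7 to -2 in Mmp3 and after the start, at 5 to 10, in Mmp12. Their distance from the start thus differed among the 3 windows, and whether the RefSeq starts are those used in the aorta was not tested. Timp1 held neither. Of the 32851 RefSeq windows of this length, 5.2% held the AP-1 letters and 8.32% the TATA letters. RefSeq windows were found for 8 of the 10 genes, 9 windows in all, and the table used here had none for Mmp2 and Mmp9. The other Mmp12 window, at a start further upstream, and those of Mmp14, Timp2, Timp3 and Timp4 had no AP-1 or TATA match. Letters of an Sp1 element (GGGCGG, both strands), which 35.7% of all windows held, stood in Mmp14, Timp1, Timp2 and Timp3. Letters of a Runx element (AACCACA, both strands; 5.27% of windows) stood in Mmp13, and letters of an Ets element (AGGAAG, both strands; 35.4% of windows) stood in at least 1 window of each of the 8 genes but Timp2. These are matches of letters and no record of binding.

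Several of the genes lie within others. Timp1 (chromosome X, 20870166 to 20874735), Timp3 (chromosome 10, 86300372 to 86349506) and Timp4 (chromosome 6, 115241892 to 115252205) stand inside the synapsin genes Syn1, Syn3 and Syn2, on the opposite strand. The libraries kept strand, but the strand setting of the read assignment is not given in the sources used here. Syn1 had at most 6 counts in any mouse, too few to be tested, and Syn3 at most 66 against 18011 or more for Timp3. Syn2 had up to 182 counts, Timp4 85 to 536, and the values of Syn2 are given beside those of Timp4. Mmp12 (7344381 to 7369499) overlaps the end of Mmp1b, which had 1 count in all 18 mice. Of the stretches of 31 bases in Timp3 transcripts, 21.9% also occur, as such or as the reverse complement, in transcripts of other genes, Syn3 foremost. The shares that follow were counted in the same way, and matches on the opposite strand were not told apart. For Mmp3 the share was 14.6%, and 202 of its 258 shared stretches lie in other genes of the family, foremost Mmp10, which had 0 counts in every mouse. The share was 6.59% for Mmp12, 2.41% for Mmp14 and 1.25% for Timp4. For Mmp2, Mmp9, Mmp13, Timp1 and Timp2 the share was 0.0%. Mmp2 lies on chromosome 8 (92827291 to 92853420), Mmp9 on chromosome 2 (164940780 to 164955850), Mmp14 on chromosome 14 (54431612 to 54445364) and Timp2 on chromosome 11 (118301069 to 118355740, where it overlaps Cep295nl on the same strand, at most 103 counts).

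Expression is given in CPM, the usual unit of counts relative to a library's total, with the totals scaled by TMM. Totals were 12413229 to 30844775 counts per mouse and were highest in HGPS. Smooth muscle markers, the defining genes of the aortic media, summed to 19740 to 27560 CPM in HGPS, 29670 to 38310 in 2-mo WT and 30680 to 34940 in 24-mo WT. Of the 8 markers, 6 fell in HGPS against 2-mo WT, among them Myh11 (mean 4269 against 9621 CPM) and Acta2 (10790 against 16390). Tagln (5443 against 5461) and Myocd (209.7 against 197.5) did not. In counts from whole tissue, fewer cells of a type and less RNA per cell cannot be told apart, and this holds for every result that follows. From stained sections, the study reports similar numbers of smooth muscle nuclei in the media of young HGPS and young WT aortas. Cell numbers in the sequenced aortas were not tested.

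The inhibitors made most of the RNA. On a scale of CPM per kb of the longest transcript, the level in 2-mo WT aortas was 296.3 ± 27.0 for Timp3 and 170.8 ± 7.47 for Timp2 (SD, n = 6). The highest proteases were Mmp2 at 61.8 ± 7.62 and Mmp3 at 61.3 ± 9.92, whose ranges over mice overlapped. Mmp14 (19.8 ± 1.24) and Timp1 (18.5 ± 0.771) came next and overlapped too, followed by Mmp9 at 2.12 ± 0.931 and Timp4 at 1.57 ± 0.260, again overlapping. Mmp12 (0.145 ± 0.0546) and Mmp13 (0.0666 ± 0.0241) were at the bottom, with overlapping ranges. Every other pair of neighbours in this order was apart in all mice.

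In HGPS aortas the order on the same scale changed at Timp1, at 59.6 ± 17.2 CPM per kb, which stood above Mmp14 (23.9 ± 3.89) with no overlap and overlapped only with Mmp3 (76.6 ± 7.29) above it. Mmp2 (106.5 ± 16.7) stood apart from Mmp3, and Timp4 (2.94 ± 0.520) apart from Mmp9 (1.40 ± 0.339). In 24-mo WT aortas Mmp3 (118.4 ± 29.0) stood above Mmp2 (40.7 ± 5.43) with no overlap, and its range met that of Timp2 (143.7 ± 11.7). The plot of levels per length shows these orders. With the length of all merged exons in place of the longest transcript, neighbours in the order changed places, namely Timp3 with Timp2 in HGPS, and Mmp2 with Mmp3 and Mmp14 with Timp1 in 2-mo WT. The place of Timp3 above Timp2 in HGPS is thus set by the length chosen.

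**Figure D1:**
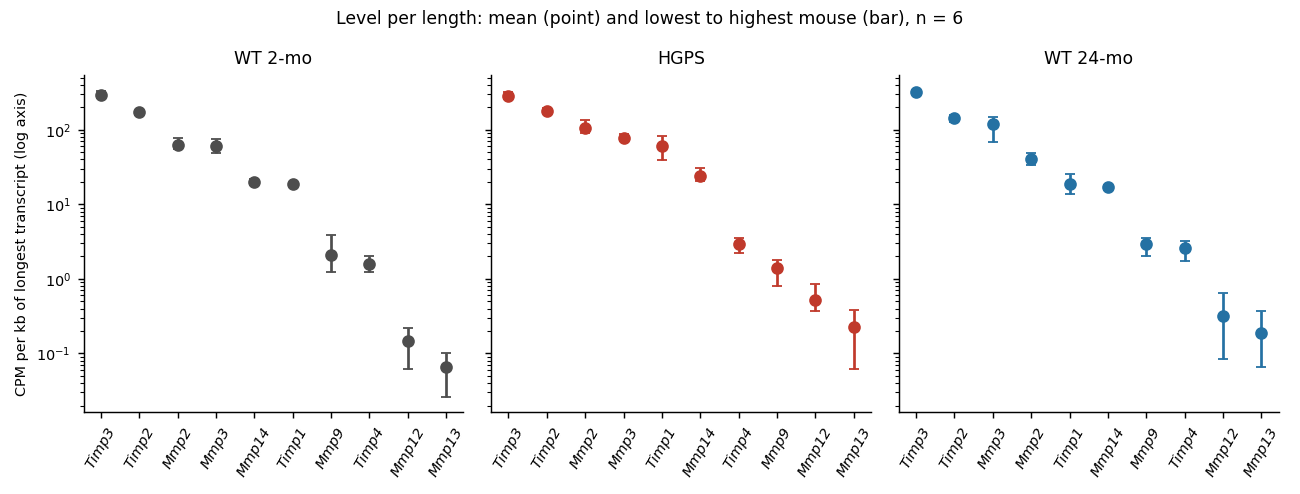
RNA level per transcript length of the 10 genes in each group, in CPM per kb of the longest transcript on a log axis, with the mean of 6 mice (point) and the lowest and highest mouse (bar). Timp3 and Timp2 lead in every group, Mmp2 and Mmp3 share the next place in 2-mo WT and part in opposite ways in HGPS and in 24-mo WT.

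The first comparison asked how the aorta of young HGPS mice differs from that of young WT mice. Of the 10 genes, 3 were past the cut-offs used by the study, a change of 1.5-fold and an adjusted p under 0.001, and all 3 were higher in HGPS: Timp1, Timp4 and Mmp2. None was past them in the lower direction. Across all genes tested, 5.27% were past the cut-offs upward and 4.23% downward. The study applied these cut-offs with DESeq2 and reported more genes past them than the 1445 of the fit here. Its count also exceeded the 1923 found here with DESeq2, and the source of the difference was not tested. The calls given here are thus not the study's own. At an adjusted p under 0.05 alone, called passing the test from here on, 6 of the 10 rose and 1 fell, where 22% of all genes rose and 21.2% fell. The 6 include Mmp13, which had enough counts to be tested only through the groups where it is high, so its rise adds nothing to this count. The 6 HGPS mice lay wholly outside the range of the 6 WT mice in 4 of the 10 genes, against 21.9% of all genes.

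Timp1, the inhibitor known to be inducible by cytokines, changed most among the 3 genes past the cut-offs. It had 34.9 CPM in the lowest HGPS mouse, a median of 50.9 and 73.0 in the highest. In 2-mo WT the same values were 15.4, 16.6 and 17.1 CPM. The groups were far apart, and HGPS replicates 1, 3 and 6 (58.7, 73.0 and 65.0 CPM) were higher than the other 3 HGPS mice, all under 43.1 CPM. The rise was 3.21-fold, a log2 fold change of 1.68 ± 0.168 (SE) with an adjusted p of 5.4e-07 by edgeR's quasi-likelihood test, and this gene was called under each of 30 alternative settings (log2 fold changes 1.57 to 1.78).

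Mmp2, gelatinase A, had 279.3 CPM in the lowest HGPS mouse, a median of 318.2 and 418.0 in the highest. The 2-mo WT mice had 170.2, 184.7 and 235.0 CPM. The groups did not overlap, with HGPS replicate 6 the highest of all 18 mice. The rise was 1.72-fold (log2 fold change 0.79 ± 0.106, adjusted p = 1.38e-05). With marker scores of brown fat and skeletal muscle as covariates the estimate was 0.73 with an adjusted p of 0.00234, outside the cut-offs.

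Timp4, an inhibitor known from heart and vessels, had 12.2 CPM in the lowest HGPS mouse, a median of 16.8 and 19.6 in the highest, against 6.90, 8.28 and 11.2 in 2-mo WT. No HGPS mouse was as low as any WT mouse. The rise was 1.87-fold (log2 fold change 0.90 ± 0.146, adjusted p = 8.25e-05), and 0.89 with an adjusted p of 0.00414 with the same covariates. Syn2, the gene around it on the other strand, was at 6.23 CPM in HGPS and 3.55 in 2-mo WT (log2 fold change 0.81 ± 0.213, adjusted p = 0.00496). In 24-mo WT, Syn2 was at 2.88 ± 1.26 CPM and Timp4 at 14.3 ± 2.85 CPM. In HGPS against 24-mo WT, Syn2 was past the cut-offs upward, while Timp4 did not pass. That call of Syn2 was lost under 9 of 30 alternatives, with log2 fold changes of 0.995 to 1.37. Whether reads of one were assigned to the other was not tested.

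Mmp12 and Mmp13, the macrophage elastase and the collagenase, rose as well but rest on few counts. Mmp12 had 39 to 69 counts in HGPS mice (1.64 to 3.87 CPM, median 2.08) and 4 to 19 in 2-mo WT mice (0.279 to 0.981 CPM, median 0.651). The groups were apart, the fold was 3.53 and the log2 fold change 1.82 ± 0.417, with a 95% interval from 0.95 to 2.69 and an adjusted p of 0.00174. Without 24-mo WT replicate 1 or 4, which changes the shared estimate of the spread, the adjusted p was 0.000738 or 0.000776. DESeq2 gave 6.71e-05. Mmp13 had 4 to 23 counts in HGPS (0.167 to 1.02 CPM, median 0.638) and 1 to 5 in 2-mo WT (0.0699 to 0.267 CPM, median 0.181). Its groups overlapped at HGPS replicate 5, and the log2 fold change was 1.68 ± 0.464 (adjusted p = 0.00654). Mmp13 reached 10 counts in 5 HGPS mice, in 2 24-mo WT mice and in 0 2-mo WT mice, so it was tested only through the groups where it is high.

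The remaining proteases changed less or fell. Mmp14, which activates pro-MMP2, rose 1.21-fold, from 64.2 ± 4.01 to 77.5 ± 12.6 CPM (adjusted p = 0.0136), and the lowest HGPS mouse (65.7) lay within the WT range of 59.6 to 69.7. Mmp9, gelatinase B, had 2.55 to 5.71 CPM in HGPS (median 4.61) and 3.98 to 12.1 in 2-mo WT (median 5.80). The groups overlapped widely, and the fall of 0.60 ± 0.236 on the log2 scale (adjusted p = 0.0459) did not hold without any 1 of 10 mice (HGPS replicates 1, 3, 4, 5 and 6, 24-mo WT replicates 3 and 5, 2-mo WT replicates 1, 2 and 5). Without 2-mo WT replicate 2, the mouse at 12.1 CPM, the log2 fold change was -0.36 with an adjusted p of 0.176. Mmp3, stromelysin-1, was at 138.0 ± 13.1 CPM in HGPS and 110.5 ± 17.9 in 2-mo WT and did not pass (adjusted p = 0.0779; 95% interval of the log2 fold change 0.02 to 0.62). Without the 95 d old WT mouse its adjusted p was 0.0472, and without 24-mo WT replicate 1 it was 0.0172. With the fat and muscle covariates Mmp3 passed (0.72, adjusted p = 0.00459), while Mmp14, Mmp9 and Mmp13 did not (adjusted p = 0.233, 0.0798 and 0.0639).

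The 2 most abundant inhibitors stayed within narrow bounds. Timp2 was at 670.2 ± 34.8 CPM in HGPS and 633.4 ± 27.7 in 2-mo WT, with a 95% interval of the log2 fold change from -0.04 to 0.21. Timp3 was at 1347 ± 95.5 and 1399 ± 128 CPM, with an interval from -0.19 to 0.09. Neither passed the test, and the mice of both groups overlapped. The plot of CPM by mouse gives all values.

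**Figure D2:**
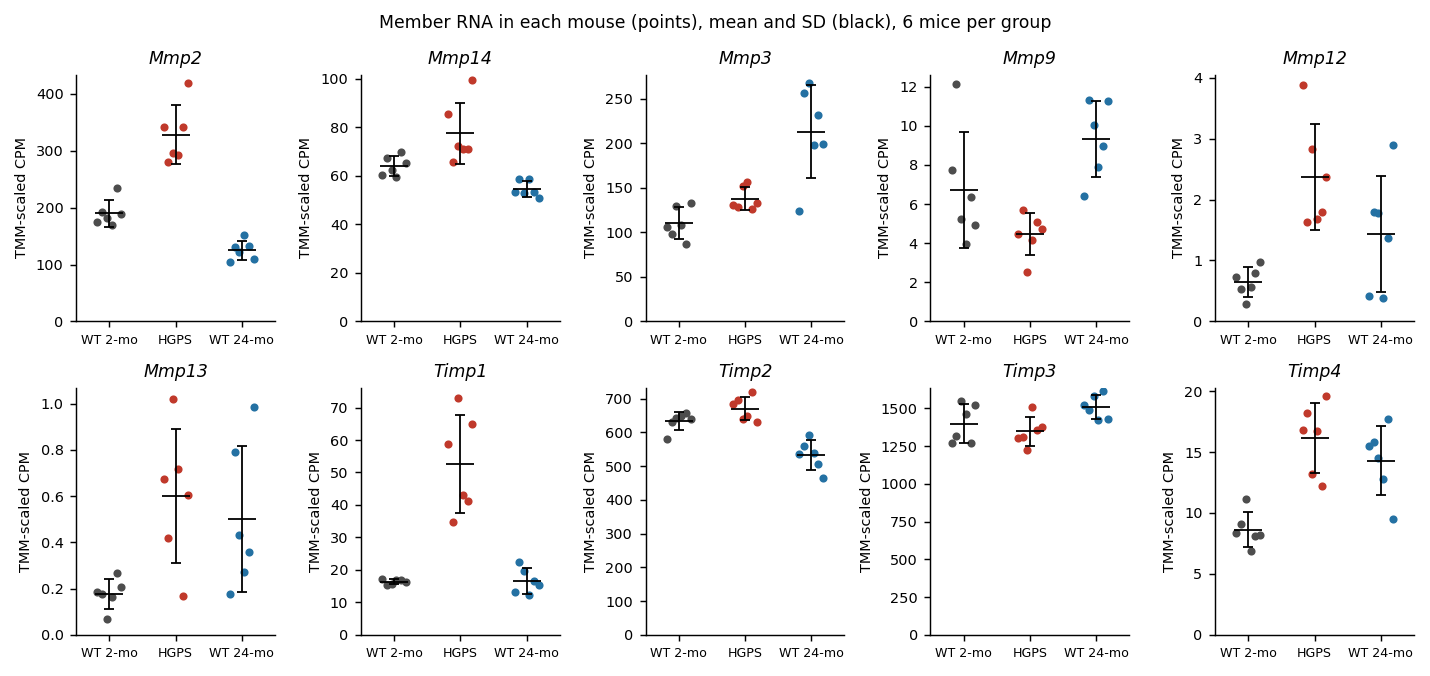
RNA of the 10 genes in each of 18 mice, in TMM-scaled CPM on axes that start at 0, with the mean and SD of 6 mice per group in black. HGPS mice stand clear of both WT groups for Timp1 and Mmp2, while for Timp4, Mmp12 and Mmp13 the 24-mo WT mice reach into the HGPS range.

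The comparison of 24-mo with 2-mo WT mice asked what normal aging does. Here 1 of the 10 genes was past the cut-offs upward, Mmp3, and 1 downward, Mmp2. Of all genes tested, 1.28% were past them upward and 0.717% downward. At an adjusted p under 0.05, 2 of the 10 rose and 2 fell, where 6.29% of all genes rose and 5.38% fell. In 2 of the 10 the groups did not overlap, against 6.28% of all genes.

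Mmp3 had 123.7 CPM in the lowest 24-mo mouse, a median of 216.2 and 268.4 in the highest. In 2-mo WT these values were 87.5, 107.2 and 133.6. Only 24-mo replicate 1 fell within the young range, and the others were at 198.8 or more. The log2 fold change was 0.95 ± 0.144 (1.93-fold, adjusted p = 0.000169), and the gene stayed past the cut-offs whichever mouse was left out. With the 2 WT groups fitted alone, its adjusted p was 0.00138.

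Mmp2 went the other way. The 24-mo mice had 104.9, 126.3 and 151.3 CPM (lowest, median and highest), all below the 170.2 CPM of the lowest 2-mo mouse. The log2 fold change was -0.60 ± 0.107, a level 0.659 times that of 2-mo WT (adjusted p = 0.000749). This value is close to the cut-offs: with 1 of 13 mice left out (HGPS replicates 1 and 5, 24-mo WT replicates 1, 2, 3, 5 and 6, or any 2-mo WT mouse) the adjusted p was 0.00109 to 0.00239, with log2 fold changes of -0.53 to -0.63.

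Timp4 rose from 8.64 ± 1.43 to 14.3 ± 2.85 CPM (log2 fold change 0.73 ± 0.147, adjusted p = 0.00252), with only 24-mo replicate 6, at 9.49 CPM, inside the young range. Without that mouse its adjusted p was 0.000403. Timp2 fell from 633.4 ± 27.7 to 533.1 ± 43.3 CPM (log2 fold change -0.25 ± 0.060, adjusted p = 0.00945), with 24-mo replicate 3 at 591.7 CPM above the lowest young mouse at 580.0. With the fat and muscle covariates its adjusted p was 0.0845. Mmp14 was lower in all 24-mo mice (51.1 to 58.9 CPM) than in any 2-mo WT mouse (59.6 to 69.7) and yet did not pass (log2 fold change -0.23 ± 0.084, adjusted p = 0.0862). It passed with the 2 WT groups fitted alone (adjusted p = 0.024) and without HGPS replicate 6 (0.0269).

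The other 5 genes did not pass either. Timp1 was at 16.6 ± 3.92 CPM in 24-mo and 16.4 ± 0.680 in 2-mo WT (95% interval of the log2 fold change -0.34 to 0.37). Timp3 was at 1511 and 1399 CPM (adjusted p = 0.323). Mmp9 was at 9.32 ± 1.96 and 6.73 ± 2.95 CPM (adjusted p = 0.224), and 0.0331 without 2-mo WT replicate 2. Mmp12 and Mmp13 varied widely among the old mice, with 7 to 47 and 3 to 16 counts. Their log2 fold changes were 1.11 ± 0.428 (adjusted p = 0.104) and 1.41 ± 0.483 (adjusted p = 0.0655). The lowest values of both came from 24-mo replicates 1 and 4, and without replicate 1 the adjusted p was 0.0405 for Mmp12 and 0.0356 for Mmp13. The fit without replicate 4 gave 0.0405 for Mmp12, and that without HGPS replicate 5 gave 0.0408 for Mmp13.

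Young HGPS mice were also set against 24-mo WT mice, which tests the difference between the 2 states themselves. Since both comparisons above used the same 2-mo WT mice, their values are not independent of each other. Here 2 of the 10 genes were past the cut-offs, Mmp2 and Timp1, both higher in HGPS, where 6.02% of all genes were past them upward and 6.11% downward. Of the 10, 4 rose and 3 fell at an adjusted p under 0.05, against 23.8% and 23.6% of all genes. The groups did not overlap in 5 of the 10, against 22.2% of all genes.

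Mmp2 was 2.62-fold higher in HGPS than in 24-mo WT (log2 fold change 1.39 ± 0.108, adjusted p = 1.19e-08), with every HGPS mouse at 279.3 CPM or more and every 24-mo mouse at 151.3 or less. Timp1 was 3.18-fold higher (log2 fold change 1.67 ± 0.168, adjusted p = 2.62e-07), with 34.9 CPM or more against 22.5 or less. Both were called under each of the 18 fits that left out a mouse. Mmp14 (log2 fold change 0.50 ± 0.084, adjusted p = 8.33e-05) and Timp2 (0.33 ± 0.060, adjusted p = 0.000177) were higher in every HGPS mouse than in any 24-mo mouse, by less than 1.5-fold.

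Mmp9, at 2.55 to 5.71 CPM in HGPS, was below all 24-mo mice, which had 6.39 to 11.3. The log2 fold change was -1.06 ± 0.234 with an adjusted p of 0.00107. Just above the limit here, it was 0.000676 without 24-mo replicate 1, and 0.000212 and 0.000724 without 2-mo WT replicates 2 and 4. Mmp3 was lower in HGPS, by 0.63 ± 0.143 on the log2 scale (adjusted p = 0.00138), with 24-mo replicate 1, at 123.7 CPM, below all HGPS mice (126.6 to 156.9) and the other 24-mo mice above them. Without replicate 1 the log2 fold change was -0.75 and the adjusted p 2.54e-05, and with the fat and muscle covariates the adjusted p was 0.116. Timp3 was lower by 0.17 ± 0.067 (adjusted p = 0.0491), which did not hold without any 1 of 9 mice (HGPS replicates 1, 2, 3, 5 and 6, 24-mo WT replicates 1, 3 and 5, 2-mo WT replicate 4; adjusted p 0.0544 to 0.118). Mmp12, Mmp13 and Timp4 did not pass, with 95% intervals of the log2 fold change from -0.10 to 1.53, from -0.58 to 1.13 and from -0.12 to 0.47. Mmp12 passed without 24-mo WT replicate 6, its highest old mouse (1.03, adjusted p = 0.0359).

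**Figure D3:**
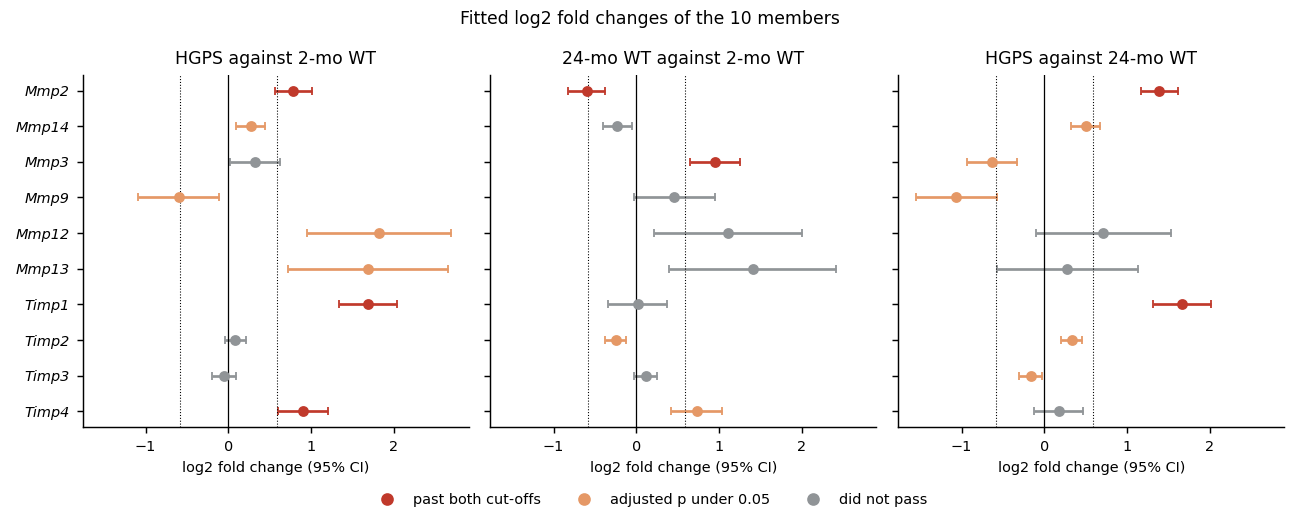
Fitted log2 fold changes of the 10 genes in the 3 comparisons, with 95% confidence intervals (bars), the 1.5-fold limits (dotted lines) and the call of each gene (colour). Mmp2 is past both cut-offs in all 3 comparisons and lies on opposite sides of 0 in HGPS and in 24-mo WT against 2-mo WT, and the intervals of Mmp12 and Mmp13 are the widest.

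Ratios within a mouse, on the scale of CPM per kb, put the genes against each other. They are ratios of RNA and say nothing of protein or activity, and they are given as a description. The 6 Mmp genes together had 0.299 ± 0.0177 times the RNA of the 4 Timp genes in 2-mo WT, 0.396 ± 0.0297 times in HGPS and 0.370 ± 0.0605 times in 24-mo WT (SD, n = 6). HGPS (0.364 to 0.450) and 2-mo WT (0.268 to 0.319) did not overlap. In 24-mo WT, replicate 1 was at 0.250, below every young mouse, and the other 5 were at 0.373 to 0.418.

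The makeup of these sums differed. Mmp2 gave 42.5% of the RNA of the 6 proteases in 2-mo WT, 50.7% in HGPS and 23.1% in 24-mo WT, and Mmp3 gave 42.2%, 36.8% and 65.3%. Timp1 gave 3.82% of the RNA of the 4 inhibitors in 2-mo WT, 11.3% in HGPS and 3.85% in 24-mo WT. Mmp2 stood at 0.362 ± 0.0384 of Timp2 in 2-mo WT, at 0.592 ± 0.108 in HGPS and at 0.284 ± 0.0384 in 24-mo WT. The HGPS range (0.484 to 0.797) lay above those of 2-mo WT (0.316 to 0.431) and 24-mo WT (0.236 to 0.338). Mmp14 to Timp2 moved little, at 0.116 ± 0.00674, 0.133 ± 0.0261 and 0.118 ± 0.00862 in the same order. Mmp2 to Mmp14 was 3.11 ± 0.216 in 2-mo WT, 4.46 ± 0.306 in HGPS and 2.40 ± 0.238 in 24-mo WT.

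These ratios depend on the length used, which is a fixed factor for a pair of genes and leaves the groups in the same order. With the length of merged exons, an alternative added after the data were seen, Mmp2 to Mmp14 was 5.23, 7.50 and 4.04 in 2-mo WT, HGPS and 24-mo WT, Mmp14 to Timp2 was 0.0663, 0.0760 and 0.0674, and Timp1 to Timp3 was 0.108, 0.363 and 0.101 in place of 0.0630, 0.211 and 0.0586. The sum over 6 genes is not a fixed factor. It became 0.369, 0.472 and 0.488 of the Timp sum, so that HGPS stood below 24-mo WT and not above it, while all HGPS mice (0.438 to 0.531) stayed above all 2-mo WT mice (0.332 to 0.384). The share of Mmp14 in the protease sum also moved, from 13.7% to 8.26% in 2-mo WT.

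**Figure D4:**
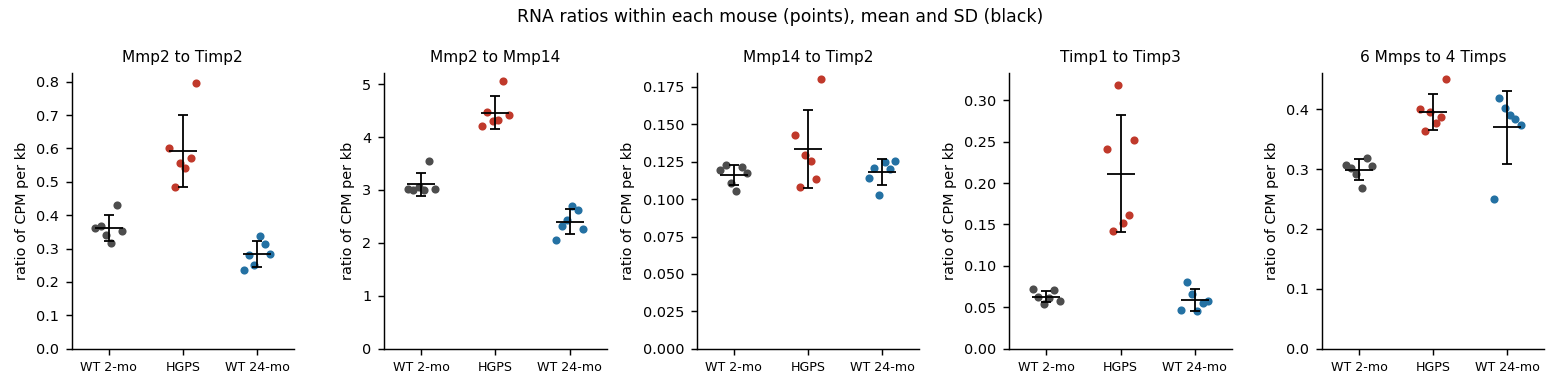
Ratios of RNA (CPM per kb of the longest transcript) within each of 18 mice, with the mean and SD of 6 mice per group in black, on axes that start at 0. Mmp2 to Timp2 and Timp1 to Timp3 are highest in HGPS, and the sum of 6 Mmps to 4 Timps is above 2-mo WT in all HGPS mice and in all 24-mo WT mice but one.

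The genome holds 17 other Mmp genes, of which 8 were tested. On chromosome 9, Mmp3 had 52849 counts over the 18 mice, Mmp12 had 529, Mmp27 had 315 and Mmp13 had 152. Mmp8 had 40, Mmp1b had 1, and Mmp1a, Mmp7, Mmp10 and Mmp20 had 0 counts. Of the 8, Mmp19 was past the cut-offs in HGPS against 2-mo WT, at 26.5 against 16.2 CPM (log2 fold change 0.71 ± 0.135, adjusted p = 0.000361), with no overlap between the groups. It lost that call without HGPS replicate 1 or 6 and without 2-mo WT replicate 1, 2 or 4. Mmp15, a membrane-bound relative of Mmp14, also rose (0.39 ± 0.143, adjusted p = 0.0353).

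The other 5 changes in HGPS were falls. Mmp23 went from 105.7 to 73.5 CPM (log2 fold change -0.53 ± 0.076, adjusted p = 2.63e-05) and Mmp17, anchored to the membrane by a lipid, from 146.0 to 107.6 CPM (-0.44 ± 0.079, adjusted p = 0.000222), both with no overlap. Mmp11, Mmp16 and Mmp27 fell with adjusted p-values of 0.00296, 0.0172 and 0.0276. In 24-mo WT, Mmp17, Mmp23 and Mmp16 were lower than in 2-mo WT by 0.42 ± 0.079, 0.40 ± 0.076 and 0.50 ± 0.116 on the log2 scale (adjusted p = 0.00142, 0.00148 and 0.0067), and none of the 8 rose. Between HGPS and 24-mo WT, Mmp15 was past the cut-offs upward (0.74 ± 0.145, adjusted p = 0.000362) and Mmp11 downward (-0.60 ± 0.121, adjusted p = 0.000443), and Mmp19 passed the test upward (0.61 ± 0.134, adjusted p = 0.00104). The calls of Mmp15 and Mmp11 were close to the cut-offs. That of Mmp15 was lost without HGPS replicate 1, 2, 3 or 6 or 24-mo WT replicate 2, 3, 4 or 6, and that of Mmp11 without HGPS replicate 2, 5 or 6 or 24-mo WT replicate 1, 4 or 5, with log2 fold changes of 0.64 to 0.86 and -0.53 to -0.68 over all alternatives. Mmp11 and Mmp19 overlap Chchd10 and Tmem198b on the opposite strand. Mmp28 passed in none of the comparisons.

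**Figure D5:**
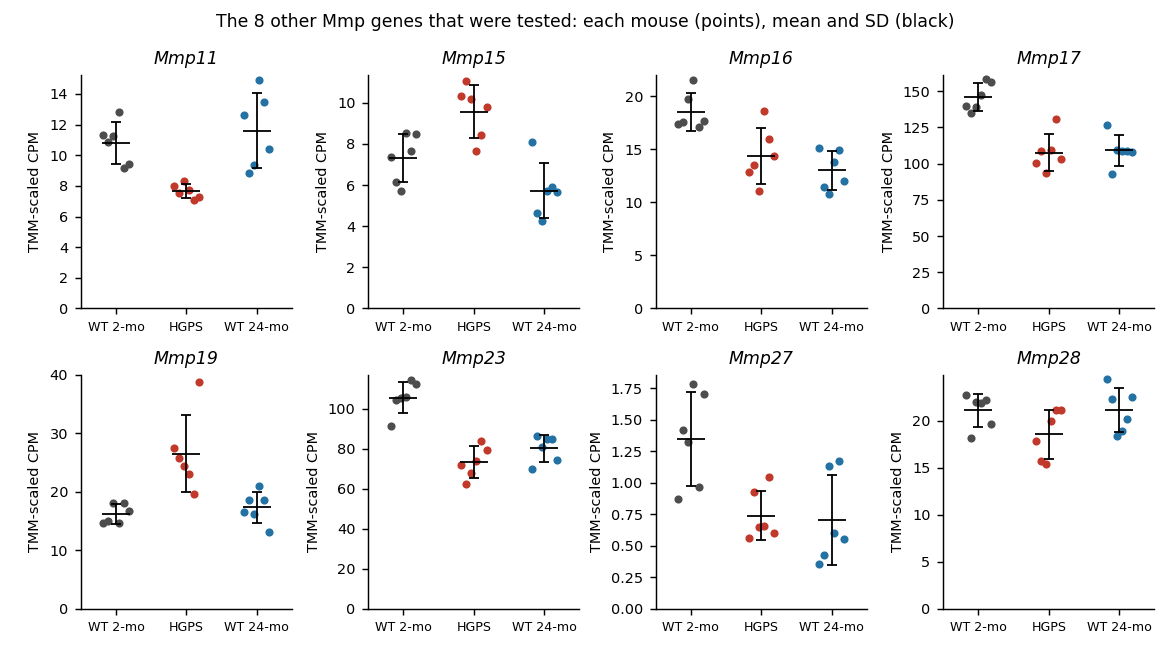
RNA of the 8 other Mmp genes that were tested, in TMM-scaled CPM for each of 18 mice on axes that start at 0, with the mean and SD of 6 mice per group in black. Mmp19 is high in HGPS, and Mmp17 and Mmp23 are lower in HGPS and in 24-mo WT than in 2-mo WT.

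Genes that act with these proteases were followed in lists, described by counts and medians. Genes named from them that were not among the 4 largest changes past the cut-offs of a comparison were chosen after their values were seen. Of 17 genes that activate MMP zymogens or restrain such proteases, 12 were tested, with a median log2 fold change of -0.09 in HGPS against 2-mo WT (0.003 over all genes). None was past the cut-offs there, 3 rose and 3 fell. Plat and Plau, the plasminogen activators, rose by 0.56 ± 0.108 (adjusted p = 0.000428) and 0.63 ± 0.136 (adjusted p = 0.00106). Pcsk5, a proprotein convertase, fell by 0.49 ± 0.091 (adjusted p = 0.000277). Furin, the convertase that processes MMP14, did not pass (0.11 ± 0.121, adjusted p = 0.488). In 24-mo WT, 3 rose and 1 fell (median 0.28). The fall was Ctsk, a collagen-cutting cathepsin, past the cut-offs (-0.78 ± 0.127, adjusted p = 0.000353), a call lost without 24-mo WT replicate 2 or 6 or 2-mo WT replicate 2 or 5 (-0.70 to -0.96 over all alternatives). The rises included Mcpt4 and Tpsb2, proteases of mast cells. Between HGPS and 24-mo WT, 2 of the 12 rose, 6 fell and none was past the cut-offs.

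Of 15 other inhibitors, partners, inducers and uptake receptors of MMPs, 14 were tested. In HGPS against 2-mo WT, 4 rose and 5 fell (median -0.07). Cd44, a hyaluronan receptor that docks MMP9 and MMP14, was past the cut-offs upward (0.65 ± 0.079, adjusted p = 4.92e-06), and Itgb3, a chain of the integrin that binds MMP2, downward (-0.68 ± 0.127, adjusted p = 0.000308), the latter not without HGPS replicate 3. Reck, a membrane-anchored MMP inhibitor, fell by 0.41 ± 0.063 (adjusted p = 4.49e-05). In 24-mo WT, none rose and 2 fell (median -0.05), and Reck did not pass (0.01 ± 0.063, adjusted p = 0.944). Between HGPS and 24-mo WT, 5 rose and 4 fell, with Cd44 (0.68 ± 0.079, adjusted p = 1.44e-06) and Tfpi2 (2.02 ± 0.340, adjusted p = 8.56e-05) past the cut-offs.

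All 9 ADAM and ADAMTS proteases listed as TIMP3 targets were tested. In HGPS against 2-mo WT, 1 rose and 2 fell (median -0.05), and Adam12 was past the cut-offs at 15.0 against 3.04 CPM (2.26 ± 0.385, adjusted p = 0.000131), though not with the fat and muscle covariates (1.21, adjusted p = 0.0692). In 24-mo WT, 1 rose and 2 fell (median -0.17), and Adamts2, which trims procollagen, was past them downward (-0.88 ± 0.085, adjusted p = 8.86e-07). Between HGPS and 24-mo WT, 4 rose and 2 fell, with Adam12 and Adamts2 past the cut-offs upward (2.43 ± 0.390 and 0.66 ± 0.085), of which Adam12 was not with those covariates (1.48, adjusted p = 0.0405). Of 10 AP-1, Ets and Runx factors, all tested, none was past the cut-offs in any comparison. In HGPS against 2-mo WT, Fosl1 and Runx2 rose (adjusted p = 0.00383 and 0.0399), while Jun (-1.29 ± 0.280, adjusted p = 0.00115), Fosb and Jund fell (median of the list -0.20). In 24-mo WT, 2 rose, Junb and Runx2 (median 0.36), and between HGPS and 24-mo WT 2 rose and 4 fell (median -0.42).

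Of 18 matrix proteins that MMPs cut, 17 were tested. In HGPS against 2-mo WT, 3 rose and 5 fell (median -0.26). Spp1, osteopontin, was past the cut-offs at 26.5 against 0.758 CPM (5.12 ± 0.371, adjusted p = 1.88e-08), as was the laminin gene Lamb1 (0.94 ± 0.196, adjusted p = 0.00079), which lost the call under 17 of 30 alternatives, among them the fits without HGPS replicate 1 or 2, 24-mo WT replicate 2, 4 or 5, or any 2-mo WT mouse (0.57 to 1.04). Elastin (Eln) did not pass (0.02 ± 0.163, adjusted p = 0.933). In 24-mo WT, 3 rose and 7 fell (median -0.29), and those past the cut-offs were Col3a1 (-1.66 ± 0.146), Eln (-1.03 ± 0.165) and Col1a2 (-0.95 ± 0.143) downward, and Spp1 (2.69 ± 0.387), Vcan (0.84 ± 0.132) and Fn1 (0.84 ± 0.138) upward, with adjusted p-values from 2.59e-07 to 0.000355. Eln lost its call without 24-mo WT replicate 2 or 2-mo WT replicate 5, and Fn1 without 24-mo WT replicate 4 or 5 or 2-mo WT replicate 1, 2 or 4, with log2 fold changes of -0.93 to -1.20 and 0.73 to 0.90 over all alternatives. Between HGPS and 24-mo WT, 6 rose and 4 fell, of which 4 and 3 were past the cut-offs, the largest being Spp1 (2.42 ± 0.297), Lamb1 (1.30 ± 0.198), Col3a1 (1.28 ± 0.144) and Eln (1.05 ± 0.165). With the fat and muscle covariates Col3a1 kept this call, while Spp1, Lamb1 and Eln did not (adjusted p = 0.0154, 0.0116 and 0.00433), nor did Vcan and Fn1 in either comparison with 24-mo WT, nor Tfpi2 (0.0105) and, in HGPS against 2-mo WT, Itgb3 (0.00211) and Mmp19 (0.0425).

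Markers of other cells moved with some of these results. Of 12 macrophage markers, 11 rose in HGPS against 2-mo WT and 7 were past the cut-offs (median log2 fold change 0.88). With the fat and muscle covariates none of these 7 kept the call (adjusted p 0.00272 to 0.0122). Their log2 fold changes there ran from 0.72 (Csf1r) to 1.17 (Lyz2), against 0.69 and 1.12 in the main fit. Over all genes tested, 1445 were past the cut-offs in the main fit and 400 with these covariates. The sum of the 12 macrophage markers was 1039 to 1648 CPM in HGPS, 610.9 to 871.5 in 2-mo WT and 576.3 to 1134 in 24-mo WT. Of 8 smooth muscle markers 6 fell and of 8 fibroblast markers 5 fell, while 7 of 8 white fat and 7 of 9 tested brown fat markers rose, with sums of 1124 to 3854 and 539.1 to 1776 CPM in HGPS against 320.4 to 1370 and 232.1 to 703.4 in 2-mo WT. In 24-mo WT against 2-mo WT, 5 of 8 fibroblast markers fell (sums of 1160 to 1506 against 1685 to 2031 CPM), and 2 of 6 tested mast cell, 4 of 4 tested nerve and 3 of 8 tested chondrocyte markers rose, with sums of 30.8 to 58.8, 30.0 to 37.6 and 148.1 to 221.2 CPM against 10.8 to 38.6, 20.6 to 24.6 and 101.8 to 139.6. Chondrocyte markers moved in HGPS against 2-mo WT as well, where 4 of 8 rose and 3 fell and the sum was 131.6 to 246.1 CPM. Between HGPS and 24-mo WT, 11 of 12 macrophage markers rose and 1 fell, 7 of 8 white fat and 7 of 9 brown fat markers rose, and 6 of 8 smooth muscle and 5 of 6 mast cell markers fell. Neutrophil markers, of which 3 of 7 could be tested, summed to 2.17 to 9.74 CPM in all mice, and none passed. Of 8 endothelial markers 1 rose in HGPS and none passed in 24-mo WT, 1 of 3 tested T cell markers rose in HGPS, and of 3 tested skeletal muscle markers 1 rose and 1 fell. No list had a marker at 0 in all mice. The part of these cells in the changes of Mmp and Timp RNA was not tested, beyond the fits with scores of brown fat and skeletal muscle given above. In those fits, for HGPS against 2-mo WT, Timp1 stayed past the cut-offs, while Mmp2 and Timp4 did not. Markers of white fat, smooth muscle and the other cells were not used as covariates.

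For the 4 genes past the cut-offs against 2-mo WT, the genes of most similar pattern were sought among the 10691 genes whose counts averaged 100 or more. The measure was Pearson's r over the 18 mice, after the mean of each group was taken off the log2 CPM, so that it describes variation among mice of a group. Mice share library depth and tissue makeup, and the values are descriptive. Mmp2 varied most like Clec11a (r = 0.88), Pcolce, the enhancer of procollagen C-proteinase (0.88), and Ctsk (0.84). Unlike Mmp2, Clec11a and Ctsk were lower in HGPS than in 2-mo WT (log2 fold changes -0.50 and -0.44). Timp1 varied most like the p53 target Bax (0.84), the topoisomerase gene Top2a (0.78) and 2410006H16Rik (0.75), all of which also had higher levels in HGPS, by 0.97, 1.64 and 0.92 on the log2 scale. Mmp3 varied like Sumf1 (0.91), Ssr3 (0.89) and Mfsd1 (0.87), and Timp4 like Grk5 (0.77), Htatip2 (0.75) and Ammecr1 (0.73). On ranks (Spearman), the values with Mmp3 were 0.80 for Sumf1, 0.74 for Ssr3 and 0.86 for Mfsd1.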

How the data were processed

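RNA of 18 mouse aortas, 6 per group, was analysed. Groups and replicate numbers came from the sample labels. The authors assigned paired-end reads of stranded total RNA libraries to GENCODE M23 transcripts (GRCm38.p6) with salmon and summed them per gene with tximport, and the deposited values are estimated counts in whole numbers, without normalization. The submitters' processing notes also list Bowtie 0.12.2, with no role given. Salmon splits reads between overlapping or similar transcripts by a model, which can move counts between a Timp gene and the gene around it. Symbols, coordinates and lengths came from GENCODE M21 on the same assembly (54107 of 54281 identifiers matched), promoter windows from RefSeq GRCm38.p6. No column was left without a sample. Counts of mice of a group differed by more than sampling noise (chi-square per degree of freedom 7.64 or more).

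Testing covered the 15210 genes in which 6 or more mice had 10 or more counts and used edgeR 4.0.16 (R 4.3.3, quasi-likelihood, TMM, all 18 mice in one fit with 15 residual degrees of freedom, Benjamini-Hochberg). Each SE was derived from a gene's log2 fold change and the root of its F value, and log2 CPM used a prior count of 2. The fit was tested on simulated data.

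The genes, lists and tests were chosen with earlier results of these data known. Named were the 10 genes, other Mmp genes averaging 10 or more counts, up to 4 genes per other list and comparison with the largest changes past the cut-offs, the genes around or next to members, and 3 genes of most similar pattern. Lists not of this family hold MMP activators, partners, TIMP3 targets, AP-1, Ets and Runx factors, matrix substrates, and markers of 12 cell types. Alternatives were DESeq2 1.42.0, other normalizations, filters, cut-offs and covariates, thinned counts, fits of only 2 groups, a block for the replicate number, and each mouse left out. The labels give each sample as a separate mouse and name no batch. The column headers also carry sample numbers, which run separately by group and fall into separate runs in HGPS. Their meaning is not given, and an order of handling could not be told apart from group.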

Additional observations from a re-analysis of the deposited data

Results flagged for a closer look

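Of the 30 sets of 6 mice (10 genes in 3 groups), 1 held a mouse far from the others. For Timp2 in 2-mo WT, the gap between replicate 1 (580.0 CPM) and the next lowest mouse was 0.654 of the range of log2 CPM in that group, above Dixon's 95% critical value for 6 values. The other 5 mice were at 629.9 to 657.9 CPM. About 1 in 20 such sets stands out by chance. Without this mouse the log2 fold changes of Timp2 stayed on their side of the test in all 3 comparisons.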

How the results depend on the processing

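Over the alternatives, 834 log2 fold changes of the 10 genes kept their direction and their call, 27 gained a call, 26 lost it and 5 changed sign. A call here means past the limits of the alternative itself, and some alternatives used looser or stricter limits than the main cut-offs. For HGPS against 2-mo WT, 3 genes were past the cut-offs. The count was 1 (Timp1) in a test against a 1.5-fold change and with fat and muscle scores as covariates, and 7 at an adjusted p under 0.05 alone. Mmp12 came past the cut-offs too with DESeq2 (adjusted p = 6.71e-05) and with the 2 groups alone (0.000251). With a mouse left out the count was 3 to 4. For 24-mo against 2-mo WT the count was 2, and it was 0 in the test against a 1.5-fold change, with the 2 groups alone, and at a log2 fold change of 0.8 with an adjusted p under 0.0001. It was 1 (Mmp3) with the covariates, 4 at an adjusted p under 0.05, and 1 to 2 with a mouse left out. For HGPS against 24-mo WT the count was 2, and it was 4 with DESeq2 (Mmp3 and Mmp9 besides), 7 at an adjusted p under 0.05, and 2 to 4 with a mouse left out, the 4 without 24-mo replicate 1. With the replicate number as a block (replicate block), the count for 24-mo against 2-mo WT was 1, as Mmp2 had an adjusted p of 0.00284. Same-numbered mice are different animals, and their deviations from the group means were correlated by -0.162 to 0.172, so the numbers do not pair the mice. The signs that changed belonged to values that did not pass the test: with the covariates, Timp3 in HGPS against 2-mo WT (0.122) and Timp4 in HGPS against 24-mo WT (-0.058), and with a mouse left out, Timp1 in 24-mo against 2-mo WT (-0.088 to 0.092). The cause of these changes was not tested. Over all genes tested, the count past the cut-offs was 1445, 304 and 1845 in the 3 comparisons, and 1923, 481 and 2267 with DESeq2. It was 143, 74 and 351 in the test against a 1.5-fold change, and 6567, 1775 and 7201 at an adjusted p under 0.05. At the stricter limits it was 497, 135 and 815, and with the covariates 400, 188 and 542. Mmp13 had no value under some of the filters or in some thinned or reduced sets. Depth limits Mmp12, Mmp13 and Mmp27.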
